A study of Mus musculus with 12 samples.

Results

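The chemokines and chemokine receptors of mouse ear skin were followed by RNA sequencing in 12 libraries forming 4 groups of 3. The family was taken by gene symbol, as all symbols that begin with Ccl, Cxcl, Ccr or Cxcr and a digit, together with Cx3cl1, Cx3cr1, Xcl1, Xcr1, Ppbp and Pf4. Described here are 60 genes so chosen of the 23234 symbols listed for each library, of which 41 encode ligands and 19 encode receptors. The group VDRcKO_Oxarol holds K5-Cre;VDR f/f mice, whose labels give that genotype also as the strain, and the other 3 groups hold wild type C57BL/6J mice. Keratin 5 promoter-driven Cre is meant to act in basal keratinocytes and the hair follicle epithelium derived from them, and not in dermal or immune cells. Where the allele was deleted in these mice was not checked. Ears of VDRcKO_Oxarol and WT_Oxarol received 100 mg of Oxarol, an ointment with 2.5 µg of the vitamin D analogue maxacalcitol, 1 day before collection. Ears of WT_PBS received phosphate-buffered saline 1 day before collection, and ears of WT_untreated received nothing. No group received the ointment base without maxacalcitol, so the drug and its base cannot be told apart. All mice were 8 to 12 weeks old. Neither a saline-treated nor an untreated K5-Cre;VDR f/f group is among the samples, so genotype and any response of that genotype to the ointment cannot be told apart. No label tells if each library is 1 mouse, so the p-values speak of the spread among libraries, part of which may be technical.

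Chemokines are small secreted proteins that bind seven-helix receptors coupled to inhibitory G proteins and direct the movement of leukocytes along their gradients. The letters of their names follow the spacing of the first conserved cysteines, and many ligands share receptors. In skin, keratinocytes supply CCL27 and CCL20, fibroblasts and vessels supply CXCL12, macrophages supply several CC chemokines, and neutrophil attractants such as CXCL1, CXCL2 and CXCL5 appear quickly after injury or irritation. Maxacalcitol and related vitamin D analogues act through the vitamin D receptor and induce the keratinocyte cytokine TSLP in mouse skin.

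Values are FPKM, in which fragment numbers are divided by transcript length and by library size, so levels of different genes can be compared. Differences are differences of log2(FPKM + 1) with the standard error of one limma fit over the 4 groups, and a gene was called at a Benjamini-Hochberg adjusted p under 0.05 over all 14059 genes tested. Estimated depth was 4890000 to 7110000 fragments in VDRcKO_Oxarol, 7730000 to 25300000 in WT_Oxarol, 13500000 to 120000000 in WT_PBS and 10900000 to 15500000 in WT_untreated. On a transcript of 1 kilobase, 1 FPKM then stands for about 4.89 fragments in the shallowest VDRcKO_Oxarol library, so values near 1 FPKM rest on few fragments in that group. Cyp24a1, the vitamin D-degrading enzyme and classical vitamin D receptor target, stood at 0 to 0.271 FPKM in VDRcKO_Oxarol, 66.2 to 599 FPKM in WT_Oxarol and 0.013 to 0.0296 FPKM in WT_PBS. Gene-level Vdr was 18.0 to 25.0 FPKM in the libraries labelled VDRcKO_Oxarol and 6.68 to 7.87 FPKM in WT_Oxarol, which goes against a deletion read from the gene total and does not check the deleted part. Keratinocyte markers summed to 4400 to 8290 FPKM over the 12 libraries. Summed hair follicle markers were 269 to 1210 FPKM in VDRcKO_Oxarol, 24.1 to 79.3 in WT_Oxarol, 27.8 to 327 in WT_PBS and 26.2 to 182 in WT_untreated, with WT_PBS replicate 3 and WT_untreated replicate 3 the highest of their groups. Library codes fall into 2 series that the labels do not call a batch: the second holds all of VDRcKO_Oxarol and replicate 3 of every wild type group.

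Levels within the family ranged from 0 to 738 FPKM. Of the 60 genes, 44 reached 1 FPKM in at least 3 libraries and were tested (31 ligands and 13 receptors), 12 stayed below 1 FPKM in all libraries, and 13 exceeded 10 FPKM in all 12. The most abundant were ligands: Ccl8 lay at 221 to 738 FPKM and Ccl27a, the keratinocyte chemokine that guides skin-homing T cells, at 61.4 to 327 FPKM. Pf4, platelet factor 4, followed at 137 to 228 FPKM. Receptors were lower, led by Ccr2, the receptor for monocyte chemoattractants, at 8.54 to 24.4 FPKM, and Cxcr2, the neutrophil receptor for Cxcl1, Cxcl2 and Cxcl5, at 8.97 to 14.7 FPKM. The scavenging receptor Cxcr7 lay at 7.19 to 14.2 FPKM.

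**Figure D1:**
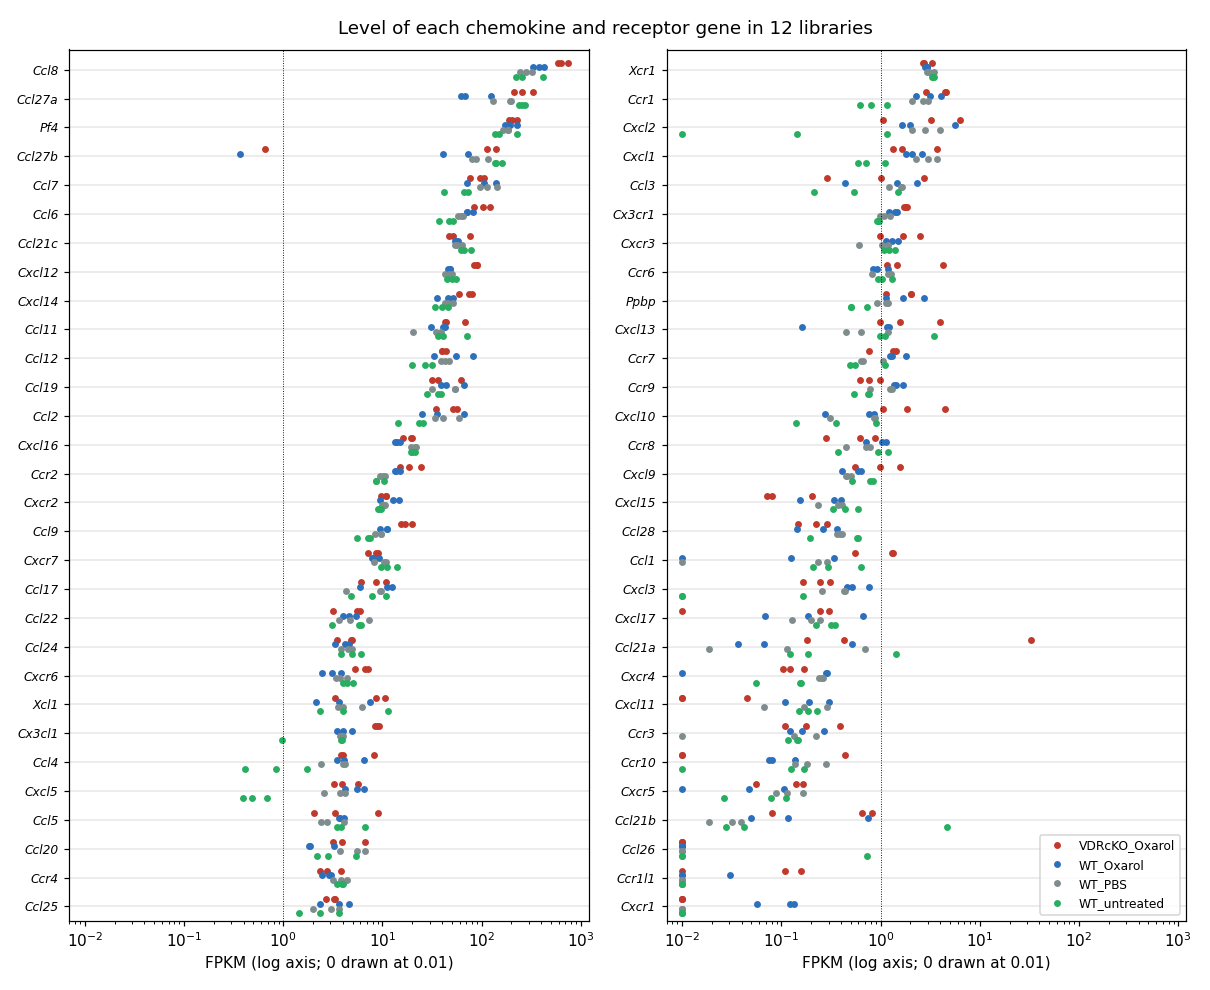
Level of each of the 60 genes in FPKM on a log axis, 1 point per library and coloured by group, sorted by the median over the 12 libraries; values of 0 are drawn at 0.01 and the dotted line marks 1 FPKM. Ccl8, Ccl27a and Pf4 lead the ligands, no receptor exceeds 24.4 FPKM, and Ccl27b has 2 libraries far below its others.

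For 2 abundant ligands the classical receptor was barely listed. Ccr10, the receptor for CCL27, stood at 0, 0.441 and 0 FPKM in VDRcKO_Oxarol, 0.137, 0.0746 and 0.0814 in WT_Oxarol, 0.181, 0.281 and 0.137 in WT_PBS and 0.168, 0.124 and 0 in WT_untreated. Cxcr4, the signalling receptor for CXCL12, stood at 0.104 to 0.168 FPKM in VDRcKO_Oxarol, 0 to 0.291 in WT_Oxarol, 0.239 to 0.265 in WT_PBS and 0.0553 to 0.159 in WT_untreated. Neither reached the level needed for a test. The other 14 untested genes were Ccl1, Ccl21a, Ccl21b, Ccl26, Ccl28, Ccr1l1, Ccr3, Cxcl11, Cxcl15, Cxcl17, Cxcl3, Cxcl9, Cxcr1 and Cxcr5. Among them Ccl21a reached 33.0 FPKM in VDRcKO_Oxarol replicate 3 and at most 1.44 FPKM in the other libraries. Ccl21a, Ccl21b and Ccl21c are near-identical copies whose reads Cufflinks can divide unevenly, and their sum was 48.1 to 84.2 FPKM in VDRcKO_Oxarol, 54.6 to 58.4 in WT_Oxarol, 54.0 to 63.1 in WT_PBS and 63.7 to 83.3 in WT_untreated.

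The comparison of VDRcKO_Oxarol with WT_Oxarol asks how the family differed under the same ointment when keratinocytes carried the targeted receptor allele. Of 44 genes tested, 8 were called, 7 higher and 1 lower, where 13.1% of all genes were called, 8.71% higher and 4.43% lower. The family's share was 18.2%. Those called higher were the ligands Ccl27a, Cxcl12, Cxcl14, Cxcl16, Ccl8 and Ccl9 and the receptor Cxcr6, and the 1 called lower was the receptor Ccr9. Libraries of the 2 groups did not overlap for 13 genes that lay higher and 1 that lay lower, which is 29.5% and 2.27% of the family, against 27.9% and 14.3% of all genes. The family's median difference was 0.11, against 0.08 over all genes. The split of all called genes, 1225 higher and 623 lower, became 820 and 1292 after quantile normalization and 826 and 1151 after median-of-ratios scaling, while the family's calls were 7 higher and 1 lower and 5 higher and 1 lower under these scalings.

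Ccl27a differed most among the genes called. It stood at 327, 257 and 213 FPKM in VDRcKO_Oxarol, 126, 61.4 and 67.4 FPKM in WT_Oxarol, 196, 130 and 193 FPKM in WT_PBS and 274, 241 and 256 FPKM in WT_untreated. All WT_Oxarol libraries lay below all other libraries, and VDRcKO_Oxarol overlapped with WT_untreated. Over WT_Oxarol the difference in VDRcKO_Oxarol was 1.69 ± 0.26 (SE, n = 3 each, limma adjusted p = 0.00765), and adding a library series term gave 1.71 (limma adjusted p = 0.0388). Ccl27a was also lower in WT_Oxarol than in WT_untreated, by a log2 difference of -1.66 ± 0.26 (SE, n = 3 each, limma adjusted p = 0.0193). That call was lost without WT_untreated replicate 3 or without WT_Oxarol replicates 2 or 3, with differences of -1.66 to -1.47 and limma adjusted p of 0.0661 to 0.0868, and in the first library series alone the difference was -1.54 (limma adjusted p = 0.427). Between WT_Oxarol and WT_PBS the difference of -1.07 ± 0.26 (SE, n = 3 each) did not pass (limma adjusted p = 0.171), and it passed without WT_Oxarol replicate 1, at -1.39 (limma adjusted p = 0.0158). Neither VDRcKO_Oxarol over WT_PBS, at 0.62 (limma adjusted p = 0.126), nor WT_PBS over WT_untreated, at -0.59 (limma adjusted p = 0.53), passed.

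Reads of Ccl27a and its near-identical copy Ccl27b were not divided in the same way in every library. Ccl27b was listed at 0.65, 138 and 112 FPKM in VDRcKO_Oxarol, 73.2, 40.8 and 0.367 in WT_Oxarol, 117, 80.9 and 87.8 in WT_PBS and 159, 135 and 141 in WT_untreated. One library of VDRcKO_Oxarol and 1 of WT_Oxarol were thus near 0. The sum of both copies was 328, 396 and 325 FPKM in VDRcKO_Oxarol, 199, 102 and 67.7 in WT_Oxarol, 313, 211 and 281 in WT_PBS and 433, 376 and 397 in WT_untreated. WT_Oxarol was again below every other library. Tested in place of its copies, the sum differed by 1.64 ± 0.31 (SE, n = 3 each, limma adjusted p = 0.0138) between VDRcKO_Oxarol and WT_Oxarol and by -1.84 ± 0.31 (SE, n = 3 each, limma adjusted p = 0.0247) between WT_Oxarol and WT_untreated. Strand was not given for the counting, and Il11ra1, which overlaps the end of Ccl27a on the opposite strand, differed by -0.13 ± 0.10 (SE, n = 3 each, limma adjusted p = 0.401) between VDRcKO_Oxarol and WT_Oxarol.

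**Figure D2:**
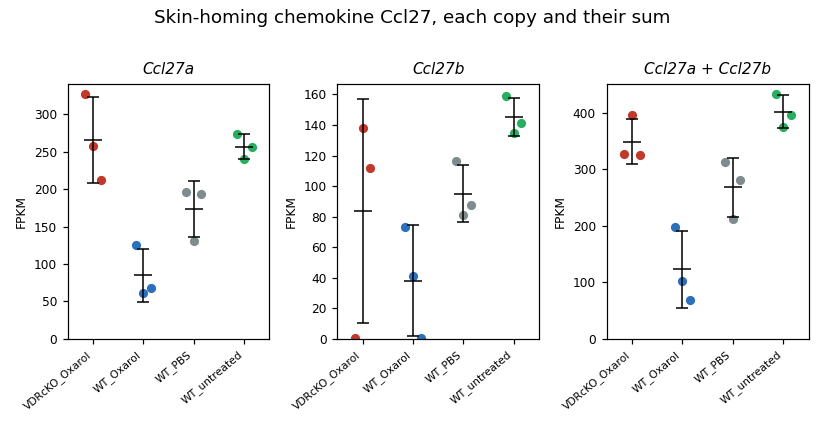
FPKM of Ccl27a, Ccl27b and their sum, with points for the 3 libraries of each group and bars for mean and SD. For Ccl27a and for the sum, every WT_Oxarol point lies under every point of the other 3 groups, and Ccl27b is near 0 in 1 library of VDRcKO_Oxarol and 1 of WT_Oxarol.

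Cxcl12, the stromal chemokine that retains and attracts leukocytes and progenitor cells, was higher in VDRcKO_Oxarol. Its level was 89.8, 84.2 and 90.2 FPKM in VDRcKO_Oxarol, 48.3, 47.6 and 45.4 FPKM in WT_Oxarol, 42.7, 47.0 and 49.8 FPKM in WT_PBS and 45.3, 49.8 and 55.6 FPKM in WT_untreated. The 9 wild type libraries lay between 42.7 and 55.6 FPKM, and all VDRcKO_Oxarol libraries lay above them. The difference was 0.89 ± 0.09 over WT_Oxarol (SE, n = 3 each, limma adjusted p = 0.00156) and 0.91 over WT_PBS (limma adjusted p = 0.000788), and with a library series term it was 0.82 (limma adjusted p = 0.00965) and 0.84 (limma adjusted p = 0.00632). Fibroblast markers moved with it: 5 of 8 were called higher over WT_Oxarol, and their sum was 3140 to 3850 FPKM in VDRcKO_Oxarol, 2050 to 2700 in WT_Oxarol, 2140 to 2670 in WT_PBS and 2550 to 2780 in WT_untreated, with none of the 8 at 0. Of 6 endothelial markers, 2, Pecam1 and Vwf, were called higher over WT_Oxarol, with positive differences for all 6. Over WT_PBS none was called by limma, where 10.8% of all genes were called higher. There 4 of the 6 had an unadjusted limma p under 0.05, as had 4818 of all 14059 genes. The endothelial markers summed to 26.8 to 31.7 FPKM in VDRcKO_Oxarol, 18.6 to 21.0 in WT_Oxarol, 19.0 to 22.8 in WT_PBS and 17.2 to 29.0 in WT_untreated, with none at 0. Of 16 hair follicle markers tested, 11 were called higher over WT_Oxarol, with a median difference of 3.38 against 0.08 over all genes. In that comparison 8.71% of all genes were called higher. The part of any of these lists in the result was not tested. In bulk tissue, more cells of a type and more RNA per cell cannot be told apart.

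Cxcl14, a constitutive epithelial chemokine, stood at 79.2, 74.8 and 58.6 FPKM in VDRcKO_Oxarol, 35.2, 51.2 and 46.4 in WT_Oxarol, 51.9, 45.7 and 42.9 in WT_PBS and 34.1, 39.8 and 46.3 in WT_untreated. VDRcKO_Oxarol lay above all wild type libraries. The difference was 0.67 ± 0.16 over WT_Oxarol (SE, n = 3 each, limma adjusted p = 0.0282) and 0.58 over WT_PBS (limma adjusted p = 0.0384). The first call was lost without any 1 of the WT_Oxarol replicates or of VDRcKO_Oxarol replicates 1 and 2 (0.52 to 0.78, limma adjusted p of 0.0518 to 0.0905), and the second without WT_untreated replicate 2, any 1 of the WT_PBS replicates or VDRcKO_Oxarol replicates 1 or 2 (0.50 to 0.65, limma adjusted p of 0.0504 to 0.124). With a library series term both missed the threshold, at 0.61 (limma adjusted p = 0.122) and 0.52 (limma adjusted p = 0.15).

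Cxcl16 and Cxcr6 are a ligand and its only known chemokine receptor, found on T cell subsets. Cxcr6 stood at 7.17, 5.26 and 6.74 FPKM in VDRcKO_Oxarol, 3.08, 2.49 and 3.81 in WT_Oxarol, 3.45, 4.38 and 3.75 in WT_PBS and 4.35, 5.10 and 4.0 in WT_untreated. All VDRcKO_Oxarol libraries were above all others, by 0.84 ± 0.15 over WT_Oxarol (SE, n = 3 each, limma adjusted p = 0.0109) and 0.60 over WT_PBS (limma adjusted p = 0.025). With a library series term these were 0.82 (limma adjusted p = 0.0515) and 0.57 (limma adjusted p = 0.0988), and the call over WT_PBS was lost without any 1 of the WT_PBS replicates or VDRcKO_Oxarol replicates 1 or 3 (0.52 to 0.68, limma adjusted p of 0.0518 to 0.0941). T cell markers were 50.2 to 53.3 FPKM in sum in VDRcKO_Oxarol, 31.9 to 36.4 in WT_Oxarol, 38.8 to 39.9 in WT_PBS and 35.7 to 52.1 in WT_untreated, with 2 of 7 tested, Cd3e and Cd3g, called higher over WT_Oxarol. Of all genes, 8.71% were called higher in that comparison. The part of T cell markers in the result was not tested.

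Cxcl16 itself was 19.7, 19.3 and 16 FPKM in VDRcKO_Oxarol, 15, 14 and 13.5 in WT_Oxarol, 21.3, 21.9 and 19.5 in WT_PBS and 19.5, 21.3 and 19.9 in WT_untreated. WT_Oxarol had the 3 lowest libraries of the 12. Over WT_Oxarol, VDRcKO_Oxarol differed by 0.35 ± 0.09 (SE, n = 3 each, limma adjusted p = 0.0378). That call was lost without WT_PBS replicates 1 or 2, any 1 of the WT_Oxarol replicates or VDRcKO_Oxarol replicates 1 or 2 (0.29 to 0.39, limma adjusted p of 0.0513 to 0.116), and with a library series term (0.41, limma adjusted p = 0.0784). WT_Oxarol lay below WT_untreated by -0.48 ± 0.09 (SE, n = 3 each, limma adjusted p = 0.038), a call lost without WT_untreated replicates 2 or 3, WT_PBS replicates 1 or 2, WT_Oxarol replicates 2 or 3 or VDRcKO_Oxarol replicate 2 (-0.49 to -0.45, limma adjusted p of 0.0535 to 0.144) and in the first library series alone (-0.46, limma adjusted p = 0.429).

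Ccl8, Ccl9, Ccl6 and Ccr2 were also among the calls of VDRcKO_Oxarol. Ccl2, Ccl7 and Ccl12 were not. Over WT_Oxarol they differed by 0.25, -0.16 and -0.37 (limma adjusted p of 0.355 to 0.71). Over WT_PBS they differed by 0.10, -0.34 and -0.06 (limma adjusted p of 0.39 to 0.884). Ccl8 stood at 738, 625 and 584 FPKM in VDRcKO_Oxarol, 374, 331 and 422 FPKM in WT_Oxarol, 246, 277 and 319 FPKM in WT_PBS and 412, 258 and 221 FPKM in WT_untreated. Its 3 VDRcKO_Oxarol libraries were the highest of the 12, by 0.79 ± 0.21 over WT_Oxarol (SE, n = 3 each, limma adjusted p = 0.0362) and 1.21 over WT_PBS (limma adjusted p = 0.00689). The call over WT_PBS held without any 1 library, whereas that over WT_Oxarol was lost without WT_PBS replicate 2 or any 1 of the WT_Oxarol or VDRcKO_Oxarol replicates (0.69 to 0.87, limma adjusted p of 0.051 to 0.115). With a library series term the differences were 0.79 (limma adjusted p = 0.122) and 1.21 (limma adjusted p = 0.0329).

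Ccl9, a ligand of Ccr1, was 19.8, 16.8 and 15.3 FPKM in VDRcKO_Oxarol, 9.38, 11.1 and 11 in WT_Oxarol, 8.48, 9.62 and 9.65 in WT_PBS and 7.23, 5.61 and 7.49 in WT_untreated. VDRcKO_Oxarol was above all wild type libraries, by 0.66 ± 0.13 over WT_Oxarol (SE, n = 3 each, limma adjusted p = 0.0141) and 0.83 over WT_PBS (limma adjusted p = 0.00418), and a library series term gave 0.58 (limma adjusted p = 0.0676) and 0.74 (limma adjusted p = 0.0261). Its close relative Ccl6 was 122, 104 and 84.7 FPKM in VDRcKO_Oxarol, 71.6, 72.0 and 82.4 in WT_Oxarol, 62.5, 57.5 and 64.3 in WT_PBS and 51.4, 37.3 and 46.8 in WT_untreated. No 2 neighbouring groups overlapped. VDRcKO_Oxarol was higher than WT_PBS by 0.73 (limma adjusted p = 0.0117), but 0.44 over WT_Oxarol did not pass (limma adjusted p = 0.0675). Without WT_PBS replicate 2 the call over WT_PBS was lost (0.68, limma adjusted p = 0.0508), as it was with a library series term (0.64, limma adjusted p = 0.06). The difference from WT_Oxarol passed without WT_untreated replicate 1 (0.44, limma adjusted p = 0.0412) and without VDRcKO_Oxarol replicate 3 (0.58, limma adjusted p = 0.0471).

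Ccr2 was 24.4, 18.5 and 15.2 FPKM in VDRcKO_Oxarol, 13.5, 13.6 and 15.1 in WT_Oxarol, 10.1, 9.54 and 10.7 in WT_PBS and 10.5, 8.64 and 8.54 in WT_untreated. Its lowest VDRcKO_Oxarol library lay just above the highest WT_Oxarol one. The difference was 0.85 over WT_PBS (limma adjusted p = 0.00688; with a library series term 0.83, limma adjusted p = 0.036) and 0.41 over WT_Oxarol, which did not pass (limma adjusted p = 0.0834; without VDRcKO_Oxarol replicate 3 it was 0.56, limma adjusted p = 0.0443).

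Monocyte and macrophage markers moved with Ccl8, Ccl9, Ccl6 and Ccr2. Of 10 tested, 6 were called higher over WT_Oxarol and 8 over WT_PBS, and the sum of the 10 was 711 to 936 FPKM in VDRcKO_Oxarol, 409 to 522 in WT_Oxarol, 386 to 436 in WT_PBS and 389 to 491 in WT_untreated. Emr1, which encodes the macrophage antigen F4/80, differed by 0.97 ± 0.15 (SE, n = 3 each, limma adjusted p = 0.00765) between VDRcKO_Oxarol and WT_Oxarol, and none of the 10 was at 0 throughout. Of all genes, 8.71% were called higher over WT_Oxarol and 10.8% over WT_PBS. The part of these markers in the chemokine results was not tested.

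Cx3cl1, the membrane-bound chemokine fractalkine, and its receptor Cx3cr1 were called over WT_PBS. Cx3cl1 was 9.26, 8.45 and 8.86 FPKM in VDRcKO_Oxarol, 3.45, 4.06 and 4.93 in WT_Oxarol, 3.93, 3.76 and 3.98 in WT_PBS and 0.979, 3.94 and 3.79 in WT_untreated. VDRcKO_Oxarol was separate from all wild type libraries, and WT_untreated replicate 1 lay far below its group. That library was also low in some other genes, such as Pxn (1.88 against 5.55 and 7.61 FPKM) and Stat6 (11.3 against 26.6 and 27.8 FPKM). It was not low in all genes, being the highest of its group for Ccl8, and it enters every comparison with WT_untreated. The difference of Cx3cl1 was 1.01 over WT_PBS (limma adjusted p = 0.038) and 0.95 over WT_Oxarol (limma adjusted p = 0.0521). Without WT_untreated replicates 1, 2 or 3 the difference of 0.95 from WT_Oxarol passed, with limma adjusted p of 0.00111 to 0.0466. The call over WT_PBS was lost without any 1 of the WT_PBS or VDRcKO_Oxarol replicates or WT_Oxarol replicate 2 (0.98 to 1.04, limma adjusted p of 0.0524 to 0.112), and with a library series term the values were 0.79 over WT_PBS (limma adjusted p = 0.169) and 0.73 over WT_Oxarol (limma adjusted p = 0.222).

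Cx3cr1 was 1.83, 1.73 and 1.80 FPKM in VDRcKO_Oxarol, 1.47, 1.22 and 1.38 in WT_Oxarol, 0.996, 1.08 and 1.23 in WT_PBS and 0.957, 0.935 and 0.913 in WT_untreated. VDRcKO_Oxarol was the highest group and WT_untreated the lowest, with no overlap of either with another group. Over WT_PBS it differed by 0.41 (limma adjusted p = 0.0139), and over WT_Oxarol by 0.24 (limma adjusted p = 0.0808). The call was lost without WT_PBS replicates 1 or 2 (0.37 to 0.40, limma adjusted p of 0.0544 to 0.0652) and with a library series term (0.38, limma adjusted p = 0.0672).

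Ccr9, the receptor for the gut and thymus chemokine Ccl25, was the only gene of the family called lower in VDRcKO_Oxarol than in WT_Oxarol. It was 0.627, 0.774 and 0.988 FPKM in VDRcKO_Oxarol, 1.38, 1.43 and 1.67 in WT_Oxarol, 1.31, 1.24 and 0.788 in WT_PBS and 0.751, 0.763 and 0.54 in WT_untreated. WT_Oxarol was highest, and VDRcKO_Oxarol overlapped with both other wild type groups. The difference of -0.48 ± 0.13 (SE, n = 3 each, limma adjusted p = 0.0354) was lost without any 1 of the WT_Oxarol replicates or VDRcKO_Oxarol replicates 1 or 2 (-0.51 to -0.41, limma adjusted p of 0.0612 to 0.108) and with a library series term (-0.39, limma adjusted p = 0.157). Cxcl10, the interferon-induced ligand of Cxcr3, was 4.43, 1.87 and 1.06 FPKM in VDRcKO_Oxarol, 0.869, 0.759 and 0.276 in WT_Oxarol, 0.869, 0.873 and 0.313 in WT_PBS and 0.356, 0.14 and 0.893 in WT_untreated. VDRcKO_Oxarol replicate 1 lay far above the rest. Only the VDRcKO_Oxarol libraries reached 1 FPKM, so Cxcl10 entered the test solely through the group in which it lay higher. Its lack of overlap, included in the counts of such genes, therefore carries little weight. Neither 0.98 over WT_Oxarol (limma adjusted p = 0.0718) nor 0.93 over WT_PBS (limma adjusted p = 0.0746) passed. Both passed only when VDRcKO_Oxarol replicate 3, the lowest of its group, was left out, at 1.29 (limma adjusted p = 0.0472) and 1.25 (limma adjusted p = 0.0416).

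**Figure D3:**
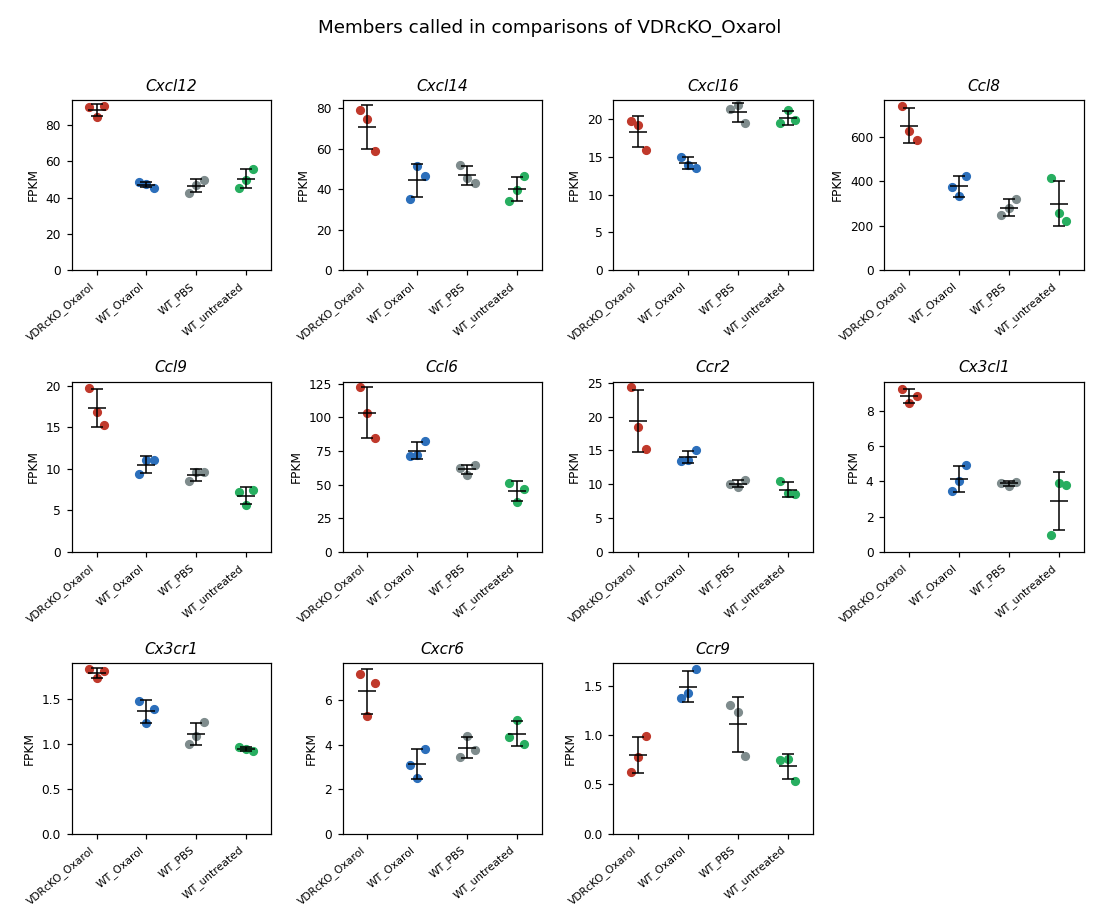
FPKM of 11 genes called in VDRcKO_Oxarol over WT_Oxarol or over WT_PBS, with points for libraries and bars for mean and SD; each axis starts at 0. In Cxcl12, Cxcl14, Ccl8, Ccl9, Ccl6, Ccr2, Cx3cl1, Cx3cr1 and Cxcr6 the VDRcKO_Oxarol points lie above all wild type points, and in Ccr9 the WT_Oxarol points are the highest.

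Set against WT_PBS, 9 of the 44 genes were called in VDRcKO_Oxarol, all higher, where 16.3% of all genes were called, 10.8% higher and 5.49% lower. The family's share was 20.5%. Libraries did not overlap for 13 genes that lay higher and 0 that lay lower, that is 29.5% of the family against 31.0% of all genes for the higher direction and 16.4% for the lower. The 9 were Cxcl12, Ccl9, Ccr2, Ccl8, Ccl6, Cx3cr1, Cxcr6, Cx3cl1 and Cxcl14. This comparison changes both genotype and treatment, and it shares its VDRcKO_Oxarol libraries with the one before, so the 2 lists of calls are not independent. The call counts depended on the library series: a fit that included it called 2 genes of the family over WT_Oxarol and 4 over WT_PBS. Of all genes, that fit called 283 and 611, against 1848 and 2286 without the term. The 2 family genes called over WT_Oxarol were Ccl27a and Cxcl12.

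Genes that work around the family in the pathway were counted from 3 lists. Of 13 atypical and chemokine-like receptors and partners tested, 4 were called higher in VDRcKO_Oxarol than in WT_Oxarol and none lower, where 8.71% of all genes were called higher and 4.43% lower. Their median difference was 0.23, against 0.08 over all genes. Among them Ccrl1, which encodes the decoy receptor ACKR4 for Ccl19, Ccl21 and Ccl25, was 15.3, 12.5 and 12.7 FPKM in VDRcKO_Oxarol and 7.53, 7.31 and 6.89 FPKM in WT_Oxarol, a difference of 0.81 ± 0.16 (SE, n = 3 each, limma adjusted p = 0.0159). Of 21 signalling and desensitisation genes tested, 4 were higher and 1, the G protein subunit gene Gnb1, was lower, where 13.1% of all genes were called. Their median difference was 0.29. Rac2, the leukocyte GTPase, was 10.6, 9.998 and 10.05 FPKM in VDRcKO_Oxarol and 4.67, 5.24 and 5.62 FPKM in WT_Oxarol, a difference of 0.86 ± 0.10 (SE, n = 3 each, limma adjusted p = 0.00303). Of 15 inducing cytokines and regulators tested, 1 was called lower, the cytokine gene Tslp, at 4.90, 7.38 and 6.98 FPKM in VDRcKO_Oxarol and 9.65, 19.3 and 24.3 FPKM in WT_Oxarol (-1.26 ± 0.28, SE, n = 3 each, limma adjusted p = 0.0212), and the median difference of the 15 was 0.33.

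The comparison of WT_Oxarol with WT_PBS asks how wild type ears given the whole ointment, drug and base together, differed from those given saline. None of the 44 genes was called by limma, where 0.306% of all genes were called, 0.249% higher and 0.0569% lower. At an unadjusted limma p under 0.05 stood 7 of the 44, against 7.45% of all genes. Libraries did not overlap for 6 genes that lay higher, namely Ccl6, Ccl8, Ccr2, Ccr7, Ccr9 and Cxcl5, and for 5 that lay lower, namely Ccl20, Ccl27a, Ccl27b, Ccr4 and Cxcl16. These are 13.6% and 11.4% of the family, against 7.53% and 8.36% of all genes. Cxcl16 came nearest to the threshold, at -0.53 ± 0.09 (SE, n = 3 each, limma adjusted p = 0.0503). It passed when WT_untreated replicate 1, or WT_Oxarol replicate 1, or VDRcKO_Oxarol replicate 3 was left out (-0.57 to -0.53, limma adjusted p of 0.0339 to 0.0487) and was -0.54 in the first library series alone (limma adjusted p = 0.769).

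Ccl20, the keratinocyte attractant for Ccr6-bearing T cells and dendritic cells, was 6.65, 3.93 and 3.18 FPKM in VDRcKO_Oxarol, 1.82, 3.29 and 1.87 in WT_Oxarol, 5.60, 6.65 and 3.75 in WT_PBS and 5.45, 2.20 and 2.84 in WT_untreated. WT_Oxarol lay below WT_PBS in every library and overlapped with the other groups. The difference between WT_Oxarol and WT_PBS was -0.93 and did not pass (limma adjusted p = 0.396). Its receptor Ccr6 was 4.29, 1.15 and 1.46 FPKM in VDRcKO_Oxarol, 1.19, 0.842 and 0.916 in WT_Oxarol, 1.19, 1.27 and 0.814 in WT_PBS and 1.32, 1.04 and 0.937 in WT_untreated, with 1 high library in VDRcKO_Oxarol and overlap between all groups.

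Of genes tied to type 2 inflammation, the ligands Ccl17 and Ccl22 and the receptors Ccr4 and Ccr8 had no call. Ccl17, a ligand of Ccr4 made by dendritic cells, was 10.8, 8.62 and 6.10 FPKM in VDRcKO_Oxarol, 11.2, 12.6 and 5.96 in WT_Oxarol, 4.27, 9.37 and 9.69 in WT_PBS and 10.9, 7.87 and 4.86 in WT_untreated. Ccl22, the other Ccr4 ligand, was 5.56, 5.95 and 3.21 FPKM in VDRcKO_Oxarol, 5.37, 4.05 and 4.62 in WT_Oxarol, 3.65, 7.40 and 4.76 in WT_PBS and 5.77, 6.06 and 3.10 in WT_untreated. For both genes the groups overlapped with each other. Ccr4 itself was 3.80, 2.79 and 2.36 FPKM in VDRcKO_Oxarol, 3.0, 2.49 and 2.88 in WT_Oxarol, 4.39, 3.82 and 3.16 in WT_PBS and 3.90, 4.0 and 3.47 in WT_untreated. It was below both other wild type groups in WT_Oxarol, with no call. Ccr8, a receptor of skin-resident T cells, was 0.625, 0.88 and 0.285 FPKM in VDRcKO_Oxarol, 1.15, 0.715 and 1.04 in WT_Oxarol, 0.721, 0.448 and 0.79 in WT_PBS and 0.939, 1.19 and 0.374 in WT_untreated.

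The eosinophil attractants showed no call either. Ccl11, eotaxin, was 67.6, 43.6 and 43.2 FPKM in VDRcKO_Oxarol, 30.8, 42.9 and 41.0 in WT_Oxarol, 34.4, 20.5 and 38.5 in WT_PBS and 41.1, 36.1 and 71.4 in WT_untreated. VDRcKO_Oxarol lay just above WT_Oxarol, at 0.40 (limma adjusted p = 0.37), and overlapped with WT_untreated. Ccl24 was 4.94, 4.79 and 3.5 FPKM in VDRcKO_Oxarol, 4.64, 4.18 and 3.31 in WT_Oxarol, 4.94, 3.87 and 4.46 in WT_PBS and 6.06, 3.82 and 4.92 in WT_untreated. Their receptor Ccr3 was at most 0.388 FPKM. Ccl5, a T cell and monocyte attractant, was 9.07, 2.04 and 3.30 FPKM in VDRcKO_Oxarol, 3.64, 4.15 and 3.77 in WT_Oxarol, 2.79, 2.38 and 4.07 in WT_PBS and 6.62, 3.83 and 3.52 in WT_untreated, with 1 high library in VDRcKO_Oxarol and in WT_untreated.

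The comparisons of WT_Oxarol and of WT_PBS with WT_untreated ask how treated wild type ears differed from untreated ones. In WT_Oxarol over WT_untreated, 6 of the 44 genes were called, 4 higher (Cxcl5, Ccr1, Ccl6 and Ccl4) and 2 lower (Ccl27a and Cxcl16), where 1.31% of all genes were called, 0.989% higher and 0.32% lower. The family's share was 13.6%. In the first library series alone limma called 0 of the 44, and 26 of all genes. Libraries did not overlap for 13 genes that lay higher and 8 that lay lower, 29.5% and 18.2% of the family, against 8.97% and 9.85% of all genes. In WT_PBS over WT_untreated no gene of the family was called by limma, where 0.00711% of all genes, a single gene, was called. At an unadjusted limma p under 0.05 stood 12 of the 44, against 9.33% of all genes, and libraries did not overlap for 14 that lay higher and 2 that lay lower, 31.8% and 4.55% of the family, against 5.6% and 7.43% of all genes. The 14 were Ccl12, Ccl2, Ccl4, Ccl6, Ccl7, Ccl9, Ccr1, Ccr9, Cx3cr1, Cxcl1, Cxcl2, Cxcl5, Cxcr2 and Ppbp, and the 2 were Ccl27a and Ccl27b. Both comparisons share the WT_untreated libraries and are not independent of each other.

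Cxcl5, a Cxcr2 ligand made by epithelium, was 3.94, 5.65 and 3.26 FPKM in VDRcKO_Oxarol, 4.23, 6.54 and 5.54 in WT_Oxarol, 3.78, 4.17 and 2.58 in WT_PBS and 0.391, 0.693 and 0.483 in WT_untreated. All 9 treated libraries lay above the 3 untreated ones. The difference from WT_untreated was 2.07 ± 0.20 in WT_Oxarol (SE, n = 3 each, limma adjusted p = 0.00126) and 1.56 ± 0.20 in WT_PBS (SE, n = 3 each), which did not pass (limma adjusted p = 0.066). It passed without WT_PBS replicate 3 or VDRcKO_Oxarol replicate 2 (1.71 and 1.56, limma adjusted p of 0.0294 to 0.0469). In the first library series alone the differences were 2.03 (limma adjusted p = 0.0554) and 1.70 (limma adjusted p = 0.198). Between WT_Oxarol and WT_PBS Cxcl5 differed by 0.51 (limma adjusted p = 0.545).

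Ccr1, a receptor for Ccl3, Ccl6 and Ccl9 on neutrophils and monocytes, was 4.46, 4.54 and 2.89 FPKM in VDRcKO_Oxarol, 2.30, 3.14 and 4.10 in WT_Oxarol, 2.98, 2.68 and 2.09 in WT_PBS and 0.803, 0.622 and 1.15 in WT_untreated. Treated libraries were again all above untreated ones, by 1.16 ± 0.20 in WT_Oxarol (SE, n = 3 each, limma adjusted p = 0.0261) and 0.95 ± 0.20 in WT_PBS (SE, n = 3 each, limma adjusted p = 0.43). The call was lost without WT_untreated replicate 2 or WT_Oxarol replicates 2 or 3 (1.00 to 1.15, limma adjusted p of 0.059 to 0.114) and in the first library series alone (1.11, limma adjusted p = 0.184). Ccl4, a monocyte and T cell attractant, was 8.25, 4.04 and 3.86 FPKM in VDRcKO_Oxarol, 3.52, 6.54 and 4.06 in WT_Oxarol, 4.01, 4.20 and 2.43 in WT_PBS and 0.839, 0.412 and 1.75 in WT_untreated. Its difference of 1.53 ± 0.32 between WT_Oxarol and WT_untreated (SE, n = 3 each, limma adjusted p = 0.0479) passed only with all libraries or without VDRcKO_Oxarol replicate 1: leaving out any other library gave 1.31 to 1.79 with limma adjusted p of 0.0508 to 0.193. In the first library series alone it was 1.86 (limma adjusted p = 0.175).

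For Ccl6 the difference between WT_Oxarol and WT_untreated was 0.73 ± 0.14 (SE, n = 3 each, limma adjusted p = 0.0402). It was lost without WT_untreated replicates 2 or 3, any 1 of the WT_PBS or WT_Oxarol replicates or VDRcKO_Oxarol replicate 2 (0.61 to 0.77, limma adjusted p of 0.0512 to 0.137) and in the first library series alone (0.70, limma adjusted p = 0.429). Ccl7 and Ccl2, monocyte attractants that bind Ccr2, had no call. Ccl7 was 95.3, 106 and 75.5 FPKM in VDRcKO_Oxarol, 71.8, 105 and 141 in WT_Oxarol, 113, 97.3 and 142 in WT_PBS and 73.4, 41.7 and 66.7 in WT_untreated. Ccl2 was 52.0, 56.5 and 34.4 FPKM in VDRcKO_Oxarol, 25.2, 35.3 and 66.3 in WT_Oxarol, 40.7, 34.2 and 59.0 in WT_PBS and 26.0, 14.4 and 23.2 in WT_untreated. In WT_PBS both lay above WT_untreated in every library, by 0.97 (limma adjusted p = 0.43) and 1.05 (limma adjusted p = 0.46), and in the first library series alone by 0.91 for each (limma adjusted p = 0.718).

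Cxcl1, Cxcl2 and Cxcl3 are Cxcr2 ligands encoded in one cluster on chromosome 5, where Cxcl15 lies between Cxcl3 and Cxcl1, and known targets of NF-kB. Cxcl1 was 3.73, 1.35 and 1.64 FPKM in VDRcKO_Oxarol, 2.09, 2.64 and 1.83 in WT_Oxarol, 3.75, 2.29 and 3.04 in WT_PBS and 1.11, 0.59 and 0.716 in WT_untreated. Cxcl2 was 6.32, 1.05 and 3.24 FPKM in VDRcKO_Oxarol, 1.65, 5.61 and 1.97 in WT_Oxarol, 3.98, 2.83 and 2.08 in WT_PBS and 0.145, 0 and 1.16 in WT_untreated. Cxcl3 was too low to test, at 0.245, 0.311 and 0.167 FPKM in VDRcKO_Oxarol, 0.513, 0.771 and 0.459 in WT_Oxarol, 0.424, 0.44 and 0.257 in WT_PBS and 0, 0 and 0.165 in WT_untreated. All 3 genes lay higher in every WT_PBS and WT_Oxarol library than in any WT_untreated library. Over WT_untreated the differences in WT_PBS were 1.15 ± 0.25 for Cxcl1 (SE, n = 3 each, limma adjusted p = 0.43) and 1.52 for Cxcl2 (limma adjusted p = 0.456), and those in WT_Oxarol were 0.82 (limma adjusted p = 0.132) and 1.46 (limma adjusted p = 0.16), so none passed. In the first library series alone WT_PBS differed by 1.11 for Cxcl1 (limma adjusted p = 0.718) and 2.03 for Cxcl2 (limma adjusted p = 0.684). Their receptor Cxcr2 was 9.73, 10.8 and 11 FPKM in VDRcKO_Oxarol, 14.7, 12.9 and 9.49 in WT_Oxarol, 9.85, 10.5 and 10.4 in WT_PBS and 9.67, 9.15 and 8.97 in WT_untreated.

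The promoters of these 3 genes are shown as examples. All 3 genes lay above WT_untreated in every treated wild type library, as did other genes of the family. Each is a RefSeq window of build GRCm38.p6, on the plus strand and 5′ to 3′, reaching 250 bases before to 50 bases after the start, at chr5:90890995-90891294 for Cxcl1, chr5:90903649-90903948 for Cxcl2 and chr5:90785851-90786150 for Cxcl3. Capitals mark matches to the NF-kB motif, GGG, any 3 bases and TTCC, on either strand.
Cxcl1: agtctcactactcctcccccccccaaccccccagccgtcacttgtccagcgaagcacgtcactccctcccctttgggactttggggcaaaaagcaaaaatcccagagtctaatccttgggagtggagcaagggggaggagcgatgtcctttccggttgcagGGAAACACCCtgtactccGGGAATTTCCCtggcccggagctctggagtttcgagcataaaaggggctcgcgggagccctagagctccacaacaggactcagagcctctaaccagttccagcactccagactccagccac
Cxcl2: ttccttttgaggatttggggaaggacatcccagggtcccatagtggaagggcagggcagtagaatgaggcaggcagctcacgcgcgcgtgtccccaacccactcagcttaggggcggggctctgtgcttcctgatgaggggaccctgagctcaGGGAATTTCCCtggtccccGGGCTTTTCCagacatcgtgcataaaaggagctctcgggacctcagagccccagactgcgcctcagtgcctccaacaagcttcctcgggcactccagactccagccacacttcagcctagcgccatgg
Cxcl3: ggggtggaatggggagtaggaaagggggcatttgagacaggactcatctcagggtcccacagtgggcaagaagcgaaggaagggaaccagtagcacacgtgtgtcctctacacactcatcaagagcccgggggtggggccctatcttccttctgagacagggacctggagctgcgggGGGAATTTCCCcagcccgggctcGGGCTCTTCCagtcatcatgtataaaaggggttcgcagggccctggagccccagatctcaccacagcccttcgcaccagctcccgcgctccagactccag
Each window holds 3 matches, of which 2 overlap on opposite strands. The letters GGGAATTTCC begin 71 bases before the start in Cxcl1, 97 in Cxcl2 and 73 in Cxcl3. The motif was found in 1825 of 32851 mouse promoter windows, or 5.56%. Of the family, 44 of 60 genes had a window, and these are not the same set as the 44 genes tested. The called genes Cxcl5, Cxcl16 and Ccl4 were among those without a window. The motif was in 9 of the 51 windows available, those of Ccl1, Ccl20, Ccl9, Ccr3, Ccr6, Cxcl1, Cxcl10, Cxcl2 and Cxcl3. Ccl12, Ccl6, Ccr1, Ccr9, Cx3cr1 and Ppbp also lay above WT_untreated in every treated wild type library, and their windows lack the motif. Ccl9 lay so too, and its window holds 1 match. A link between the motif and these levels was not tested. The vitamin D response motif of GNTCA, any 4 bases and GNTCA, on either strand, was in 230 windows, or 0.7%. Among the windows available for the family it was only in that of Cx3cr1. A match is a description of the letters and not a site in use.

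**Figure D4:**
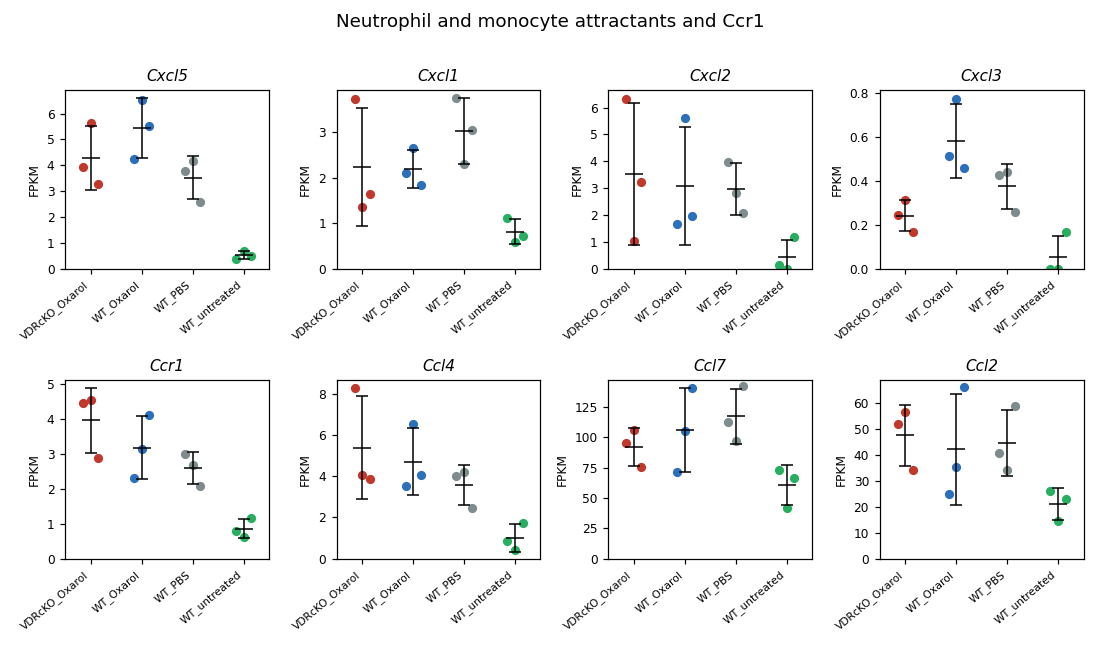
FPKM of neutrophil and monocyte attractants and Ccr1, with points for libraries and bars for mean and SD; each axis starts at 0. In Cxcl5 and Ccr1 the 9 treated libraries lie above the 3 untreated ones, and in Cxcl1, Cxcl2, Cxcl3 and Ccl4 all WT_Oxarol and WT_PBS points lie above those of WT_untreated.

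Neutrophil markers moved with these genes. Their sum was 80.4 to 137 FPKM in VDRcKO_Oxarol, 73.2 to 86.5 in WT_Oxarol, 43.7 to 96.3 in WT_PBS and 7.72 to 17.3 in WT_untreated. Most of the sum came from S100a8 and S100a9, alarmin genes that irritated keratinocytes also express, and these were the 2 of 5 tested markers called in WT_Oxarol over WT_untreated. In that comparison 0.989% of all genes were called higher. S100a8 was 49.3, 61.6 and 56.1 FPKM in WT_Oxarol and 6.74, 1.66 and 9.85 FPKM in WT_untreated. Csf3r, the receptor for the neutrophil growth factor G-CSF, was 3.05 to 3.68 FPKM in VDRcKO_Oxarol, 2.26 to 3.08 in WT_Oxarol, 2.20 to 2.52 in WT_PBS and 1.54 to 1.94 in WT_untreated. Retnlg, a gene of mature neutrophils, was 2.48 to 4.35 FPKM in VDRcKO_Oxarol, 2.14 to 2.99 in WT_Oxarol, 1.93 to 3.82 in WT_PBS and 0.22 to 1.58 in WT_untreated. For both, every treated library lay above every untreated one, and neither passed in WT_Oxarol over WT_untreated (0.41 and 1.06, limma adjusted p of 0.107 and 0.1) or in WT_PBS over WT_untreated (0.26 and 1.16, limma adjusted p of 0.52 and 0.43). Camp, the fifth tested marker, overlapped between all groups. Of the 3 markers below 1 FPKM in all libraries, the granule genes Mpo and Ngp were at most 0.424 and 0.142 FPKM and Mmp8 at most 0.795 FPKM. The part of these cells in the chemokine results was not tested.

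**Figure D5:**
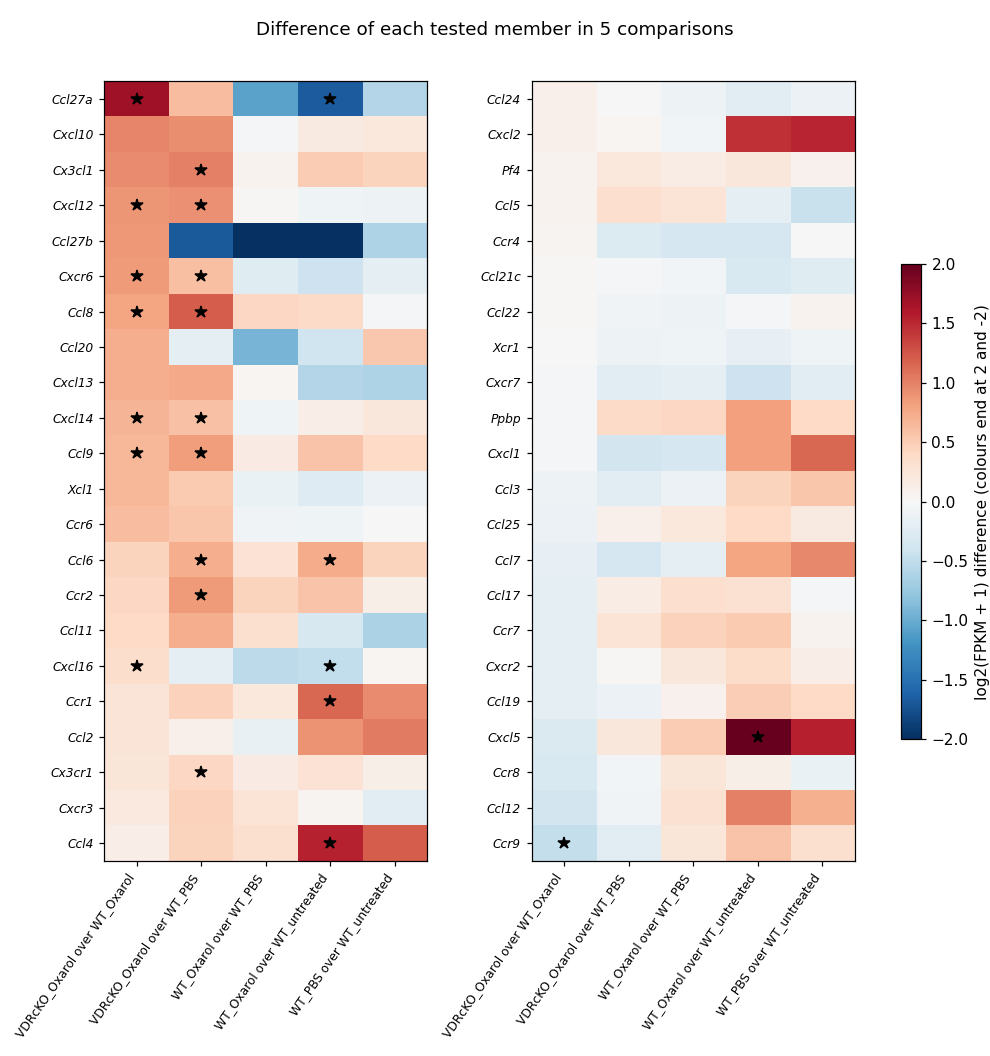
Difference of log2(FPKM + 1) for the 44 tested genes in the 5 comparisons, sorted by VDRcKO_Oxarol over WT_Oxarol; red is higher and blue lower in the group named first, colours end at 2 and -2, and stars mark genes called at an adjusted p under 0.05. Stars number 8 in the column of VDRcKO_Oxarol over WT_Oxarol and 9 in that of VDRcKO_Oxarol over WT_PBS, and those of WT_Oxarol over WT_untreated mark Cxcl5, Ccr1, Ccl4, Ccl6, Ccl27a and Cxcl16.

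Across the 5 comparisons, 23 calls fell on 15 genes and 29 of the tested genes were called in none. Pf4 stood at 204, 228 and 188 FPKM in VDRcKO_Oxarol, 193, 171 and 227 in WT_Oxarol, 166, 183 and 183 in WT_PBS and 226, 151 and 137 in WT_untreated. Xcr1, the receptor of cross-presenting dendritic cells, was at 2.66 to 3.28 FPKM in VDRcKO_Oxarol, 2.83 to 2.96 in WT_Oxarol, 2.95 to 3.42 in WT_PBS and 3.31 to 3.45 in WT_untreated. Its ligand Xcl1 was spread within groups, at 3.36 to 10.6 FPKM in VDRcKO_Oxarol, 2.15 to 7.44 in WT_Oxarol, 3.56 to 6.18 in WT_PBS and 2.38 to 11.5 in WT_untreated. The lymphoid pair of Ccl19 and Ccr7 was also without a call: Ccl19 was 31.8 to 62.7 FPKM in VDRcKO_Oxarol, 38.6 to 66.6 in WT_Oxarol, 31.5 to 54.2 in WT_PBS and 28.2 to 39.3 in WT_untreated, and Ccr7 was 0.766 to 1.42, 1.26 to 1.82, 0.643 to 1.07 and 0.497 to 1.12 FPKM in the same groups.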

How the data were processed

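RNA of 12 ear skin libraries was extracted with TRIzol LS and prepared with an NEBNext Ultra kit, as the labels' protocols state. The submitters' processing notes name the build mm9 and the tools Cufflinks 2.1.1, TopHat2 2.0.8 and Bowtie2 2.1.0. The FPKM values the authors deposited, 1 per gene symbol and library, carry no unit in the headers. The unit was inferred from Cufflinks and the values. Strand and counting settings were not given in the sources used here.

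Values were tested as log2(FPKM + 1) with limma 3.58.1 in R 4.3.3. A gene was kept if 3 or more of the 12 libraries reached 1 FPKM, which left 14059, and 1 fit of 4 group means with an intensity trend and 8 residual degrees of freedom gave 5 two-sided comparisons, adjusted by Benjamini-Hochberg over all genes. The scale understates changes of low genes. The method was tested on simulated data. Depth was estimated from the value of 1 fragment on genes of known length, and the intervals it would give cover counting error only. No 2 libraries were identical, and Pearson r within groups was 0.964 to 0.982.

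Genes were given in every library if called in any comparison, if among the 3 smallest p where fewer than 3 were called, or if on a fixed list. The family, this list and the marker and pathway lists were chosen with earlier results of these data known. One gene that meets the symbol rule is not reported here and is left out of the family's counts. Genes named beyond that rule (Ccl2, Ccl7, Ccl12, Cxcl2, Cxcl3, Ccl27b, Cxcr7, Ccr3, the Ccl21 copies, Pf4, Xcl1, Xcr1, Ccl19 and Ccr7, and of the markers Csf3r, Retnlg, Camp, Mpo, Ngp and Mmp8) were chosen after their values were seen. Promoter windows are from RefSeq, GRCm38.p6; no mm9 coordinates were used. Alternatives changed the pseudocount (0.1), the filter (none, or 5 FPKM) or the scaling (quantile normalization, median-of-ratios), fitted only the 2 groups compared, included a library code series term, used the first series alone, or left out each library. Chosen after seeing the data were leaving out WT_untreated replicate 3 and WT_PBS replicate 3 together, and summing near-identical copies. Python 3.11.15 with matplotlib 3.10.9 drew the figures.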

Additional observations from a re-analysis of the deposited data

How the results depend on the processing

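Following 48 differences of single genes through the alternative settings gave 1018 results, which reuse the same few fits and mostly the same libraries. Of these results, 874 kept direction and side of the threshold, 125 lost a call, 19 gained one and 0 changed sign. The calls of Ccl27a and Cxcl12 in VDRcKO_Oxarol over WT_Oxarol held in all 21 alternatives each, with Ccl27a at 1.5 to 2.01 (limma adjusted p of 0.00221 to 0.0388), as did those of Cxcl12, Ccl8, Ccl9 and Ccr2 in VDRcKO_Oxarol over WT_PBS. The cause of the following changes was not tested.

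The number of family genes called in VDRcKO_Oxarol over WT_Oxarol, 8, was 2 with the library code series as a term and 4 to 10 without 1 library, and in VDRcKO_Oxarol over WT_PBS, 9, it was 4 with that term and 4 to 9 without 1 library. In WT_Oxarol over WT_PBS, 0, it was 1 with a filter of 5 FPKM and 0 to 2 without 1 library. In WT_Oxarol over WT_untreated, 6, it was 1 in a fit of only the 2 groups, 0 in the first library code series alone, 1 without WT_untreated replicate 3 and WT_PBS replicate 3, and 1 to 7 without 1 library. In WT_PBS over WT_untreated, 0, it was 1 with a pseudocount of 0.1 and 0 to 1 without 1 library.

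Over all genes, VDRcKO_Oxarol over WT_Oxarol had 1848 calls, 283 with the series as a term and 322 to 3433 without 1 library, and VDRcKO_Oxarol over WT_PBS had 2286, 611 with that term, 3737 in a fit of only 2 groups and 543 to 3875 without 1 library. WT_Oxarol over WT_PBS had 43, 0 in a fit of only 2 groups, 8 in the first series, 21 without that pair of libraries and 13 to 132 without 1 library. WT_Oxarol over WT_untreated had 184, 90 with no filter, 12 in a fit of only 2 groups, 26 in the first series, 55 without that pair of libraries and 34 to 254 without 1 library. WT_PBS over WT_untreated had 1, 5 with a pseudocount of 0.1, 2 with no filter, 6 in a fit of only 2 groups, 13 in the first series, 10 without that pair of libraries and 1 to 6 without 1 library.

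No paired analysis was possible because replicate numbers follow deposit order and pair no samples. VDRcKO_Oxarol lies entirely in the second library code series, so series and genotype are told apart only through replicate 3 of the wild type groups. Genes near 1 FPKM rest on few fragments in VDRcKO_Oxarol, the shallowest group.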
